A study of Mus musculus with 10 samples.

Results

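The lysosome is the acidic compartment in which cells break down proteins, glycans and lipids. Its soluble enzymes are carried there from the Golgi apparatus, and a glycosylated membrane with transporters and channels encloses them. In the alveolar type 2 cell the lysosome is closely related to the lamellar body, the organelle that stores pulmonary surfactant. The transcription factors TFEB and TFE3 bind a short DNA element in front of many lysosomal genes and raise their transcription when they enter the nucleus. The 37 genes described here were chosen by name as well known parts of this compartment, out of 39017 genes in the count table, and all 37 were found, each on a single line. They comprise 7 membrane proteins, 7 proteases, 10 glycosidases, 4 sulfatases, 6 enzymes and carriers of lipid breakdown, the granulin precursor Grn, and the factors Tfeb and Tfe3.

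They were measured by RNA sequencing of polyadenylated RNA in 10 libraries from lung tumors of C57BL/6 mice, 5 labelled Control and 5 labelled Glut1-KO. The comparison asks how tumors that lose the glucose transporter Glut1 differ from those that keep it. The methods give the background of the lines crossed to make KP mice as C57BL6/J. Both groups were KP mice with Trp53 Fl/Fl, which Cre inactivates, and the Glut1-KO mice (KPG1) carried Slc2a1 Fl/Fl in addition, the gene that encodes Glut1. The control genotype label reads heterozygous for the floxed Slc2a1 allele, the design text calls it wild type, and the methods name both kinds. Cre was given to the airways with the adenovirus Ad5CC10-Cre, whose promoter is active in CC10-positive club cells, and tumors were taken 20 weeks and 1 day later, dissociated and depleted of CD45-positive immune cells. All 5 controls were labelled male, and of the Glut1-KO-labelled libraries replicates 1 to 3 were female and replicates 4 and 5 male, so that genotype and sex were partly confounded. Control replicates 1, 2 and 5, Control replicates 3 and 4, and Glut1-KO replicates 4 and 5 shared a number in their deposited names that may mark an animal, which no label states. All p-values treat the 10 libraries as independent and measure only the spread between them.

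The libraries held 35.3 to 49.8 M counts each. Slc2a1 itself was at 73.2 to 118 CPM (counts per M, scaled between libraries by the TMM method) in the controls and at 60.3, 42.5, 34.6, 92.4 and 103 CPM in the Glut1-KO-labelled libraries 1 to 5. The female libraries 1 to 3 lay below every control and the male libraries 4 and 5 lay inside the control range, and limma's test was not passed (log2 fold change -0.62 ± 0.29, SE, adjusted p = 0.658). The RNA level of the targeted gene thus did not separate the groups, and the second group is called by its label throughout. These counts cover the whole gene. The paper checked Glut1 deletion by real-time PCR of CD45-negative tumor fractions and by immunostaining, which these values do not repeat. In a transcriptome-wide fit of 15922 genes, limma called 0 genes at an adjusted p under 0.05, with 1223 genes at an unadjusted p under 0.05. The edgeR quasi-likelihood test called 0 genes with 1409 at an unadjusted p under 0.05, and DESeq2 called 215 (1.35%). Surfactant and other alveolar type 2 markers were abundant in both groups, their 10 genes summing to 27102 to 74844 CPM in the controls and 50266 to 68869 CPM in the Glut1-KO-labelled libraries. Of the 10, 9 had a log2 fold change above 0 (median 0.23, 0.44 for the female and -0.08 for the male libraries against the same controls). The 10 lymphocyte markers summed to at most 2.38 CPM in any library. Of 9 endothelial markers 9 had a log2 fold change above 0 (median 0.62, 0.89 for the female and 0.09 for the male libraries), while 7 of 8 ciliated cell markers (median -0.95, 1 called by DESeq2, -0.59 and -1.52 by sex) and 5 of 7 markers of club cells, the cells targeted by Cre, were below 0 (median -0.67, 0.03 and -1.46 by sex). limma called 0 genes of these lists, their summed levels overlapped between the groups, and their part in the lysosomal values was not tested.

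All 37 lysosomal genes were expressed in every library and passed the filter on low counts, and the smallest value rested on 198 reads. None differed between the groups by limma's adjusted test (0 of 37, beside 0% of all genes tested), with adjusted p-values from 0.482 to 0.994. By unadjusted p under 0.05, 3 were higher in the Glut1-KO-labelled libraries (Npc2, Scarb2 and Lipa, beside 3.66% of all genes) and 1 was lower (Ctsl, beside 4.02%). The edgeR quasi-likelihood test and DESeq2 also called 0 of the 37, their smallest adjusted p-values being 0.468 and 0.109, and each had 3 members at an unadjusted p under 0.05 (8.85% and 10.8% of all genes, respectively). In 0 of the 37 did the groups not overlap, beside 1.85% of all genes.

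Log2 fold changes ran from -0.44 for Ctsl to 0.64 for Npc2. They were above 0 in 25 of the 37 genes and below 0 in 12, beside 49.3% of all genes above 0, and their median was 0.11 against -0.0049 over all genes tested. For single libraries, the median deviation of the 37 genes from their means had a within-group SD of 0.12 on the log2 scale. This is a spread of libraries and not the error of a difference between groups. For 34 of the 37 the 95% confidence interval of the fold change lay within 2-fold either way (67.3% of all genes) and for 13 within 0.5 on the log2 scale (29.8%). A change of 2-fold or more was thus outside the interval for most of the members.

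**Figure D1:**
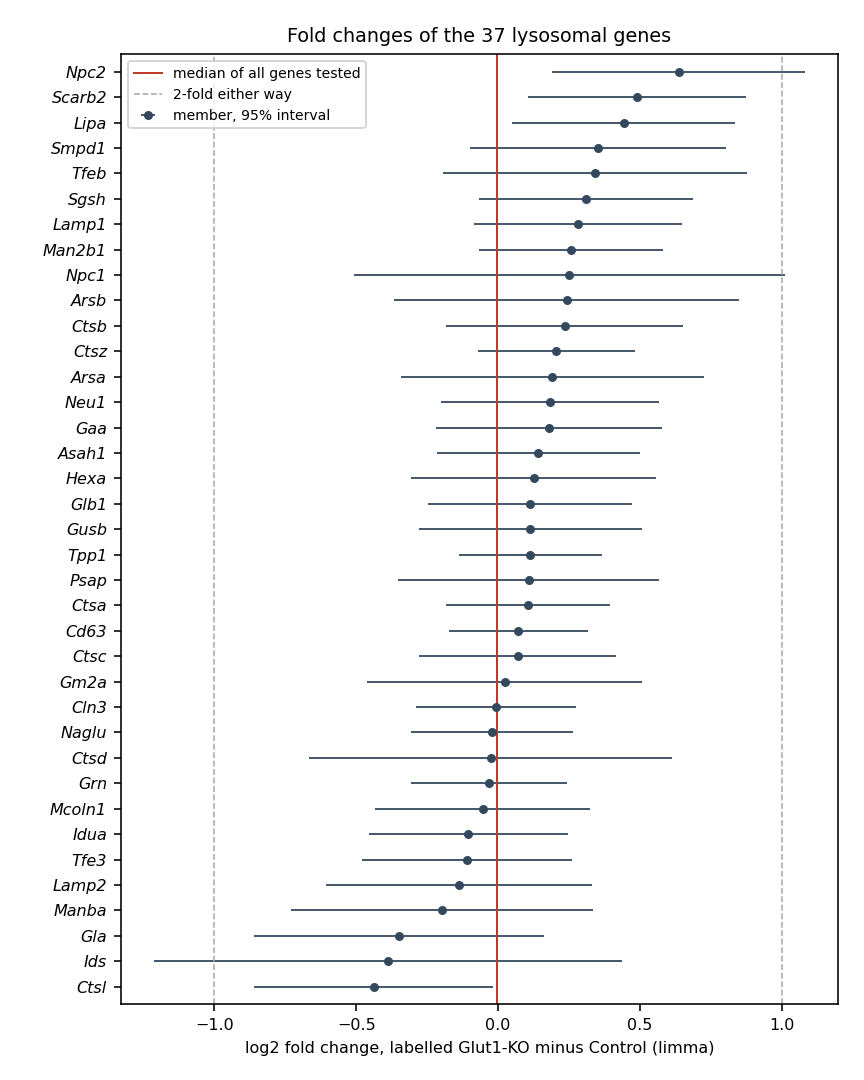
Log2 fold change (Glut1-KO-labelled libraries minus Control, limma) of each of the 37 lysosomal genes with its 95% confidence interval. The red line marks the median of all genes tested (-0.0049) and the dashed lines 2-fold either way. The points run from 0.64 for Npc2 at the top to -0.44 for Ctsl at the bottom.

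Levels per length, in TPM (transcripts per M), were computed from the counts and the merged bases of all annotated exons of each gene. This length was 2351 bases for Ctsd and 5438 bases for Npc2. It can exceed the length of the transcript present, and the order of the genes depends on it. As means over the 10 libraries, TPM spanned from 2101 for Ctsd, the aspartic protease cathepsin D, to 4.73 for Tfeb. After Ctsd came Npc2 with a mean of 1769 TPM, Lamp1 with 1262 TPM, Psap with 838 TPM and Ctsc with 477 TPM. Over single libraries Ctsd ranged from 1372 to 3220 TPM, Npc2 from 1065 to 2860 TPM, Lamp1 from 1009 to 1889 TPM and Psap from 595 to 1232 TPM, so that each of these overlapped its neighbor in the order, while the highest Ctsc value, 592 TPM, lay below the lowest of Psap. In TMM-scaled CPM, the unit used from here on, values compare libraries for 1 gene and not genes with each other.

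**Figure D2:**
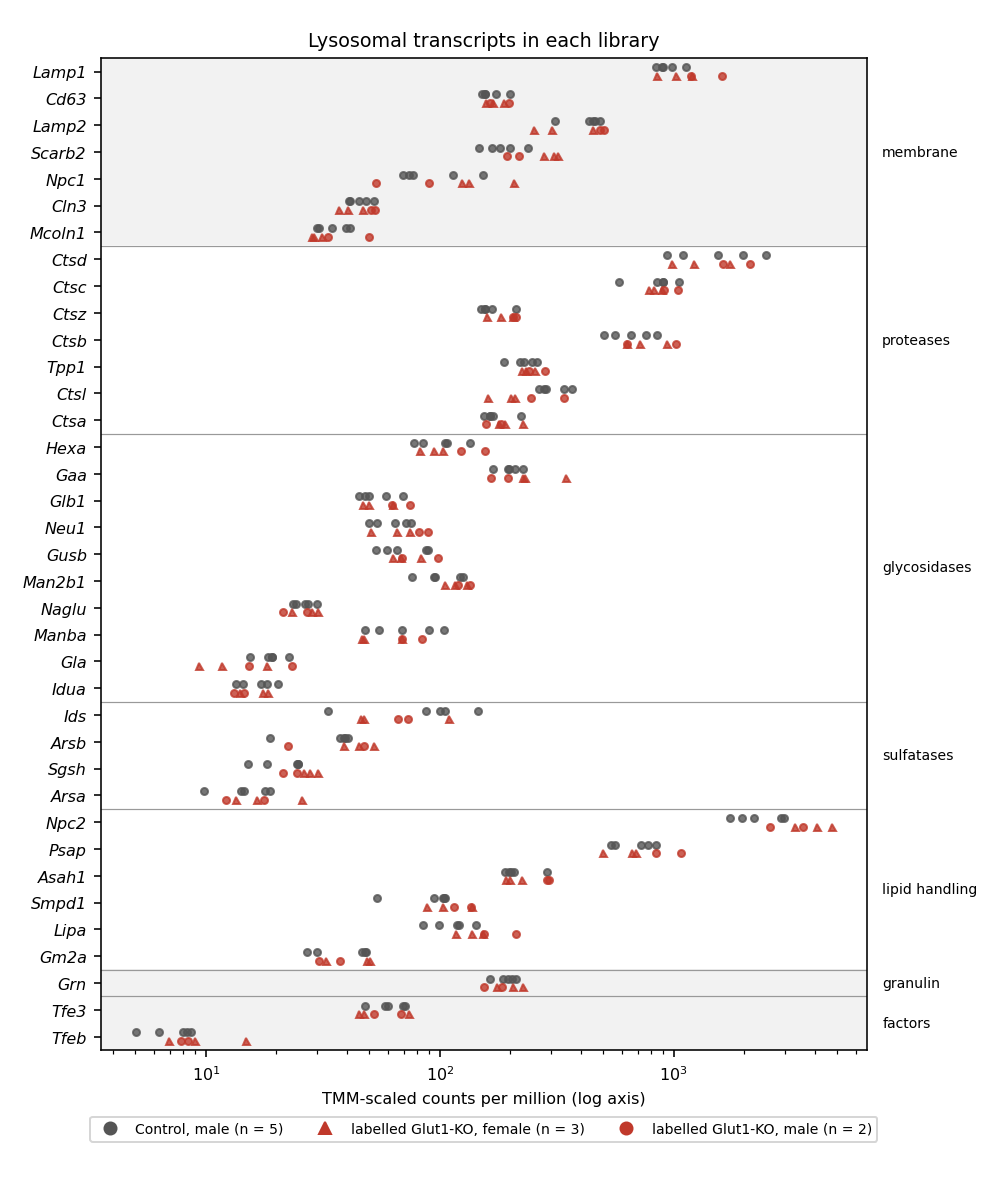
TMM-scaled CPM of each lysosomal gene in every library, on a log axis, ordered by role and within a role by level per length. Gray circles are controls (male, n = 5), red triangles female (n = 3) and red circles male (n = 2) Glut1-KO-labelled libraries. The ranges of the gray and red points overlap for every gene.

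The element bound by TFEB and TFE3 holds the 6 letters CACGTG, and its preferred form in lysosomal promoters is TCACGTG on one or both strands. RefSeq promoters on GRCm38.p6, from 250 bases before to 50 bases after a start, were found for 34 of the 37 genes (not for Ctsb, Npc1 and Asah1). CACGTG, which reads the same on both strands, occurred in 12 of the 34 (35.3%), against 11.2% of the promoters of the 10812 tested genes in the table and 8.09% of all 27025. TCACGTG on either strand was present in 11 (32.4%), against 6.59% of the tested genes, and TCACGTG on both strands at 1 place in 5 (14.7%, Cln3, Ctsa, Ctsd, Gla and Mcoln1), against 2.05%. The median GC content of the member promoters was 57.8%, against 60.3% for the tested genes. The places that best show the shared element are printed 5′ to 3′ on the strand of the gene, 10 bases to either side where the window allows, with CACGTG in capitals: the run of 4 at Lamp1 and the places of the 5 genes with TCACGTG on both strands.
Lamp1 (chr8:13159090-13159115): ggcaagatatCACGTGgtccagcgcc
Lamp1 (chr8:13159106-13159131): gtccagcgccCACGTGatgccgactg
Lamp1 (chr8:13159123-13159148): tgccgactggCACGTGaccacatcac
Lamp1 (chr8:13159136-13159161): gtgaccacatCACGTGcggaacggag
Ctsd (chr7:142387910-142387935, minus strand): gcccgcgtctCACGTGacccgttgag
Ctsa (chr2:164833751-164833776): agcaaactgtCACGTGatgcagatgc
Ctsa (chr2:164833768-164833793): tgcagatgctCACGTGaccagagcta
Cln3 (chr7:126583342-126583367, minus strand): cgggtactgtCACGTGacccccaacc
Mcoln1 (chr8:3500464-3500489): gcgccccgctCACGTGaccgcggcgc
Gla (chrX:134601217-134601242, minus strand): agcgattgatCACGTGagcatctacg
Gla (chrX:134601184-134601209, minus strand): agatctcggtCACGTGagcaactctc

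The other members with CACGTG in the window were Arsa, Ctsl, Gaa, Glb1, Naglu and Sgsh. Of the 4 genes with the smallest p, Npc2, Scarb2 and Lipa had no CACGTG in the window, and Ctsl had 1, at 236 bases before its RefSeq start and without the preceding T on either strand: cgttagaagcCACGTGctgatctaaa (chr13:64370741-64370766, minus strand). Several printed places, among them those of Ctsl and Cln3, lie inside the gene span of GENCODE M21, whose start differs from the RefSeq start used. A match describes the letters of the window and is not a binding site, and a window without a match says nothing of the factors. The 12 genes with CACGTG had a median log2 fold change of 0.05 (6 of 12 above 0) and the 22 without it 0.11 (16 of 22 above 0), both given as descriptions.

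The enzymes and carriers of lipid breakdown held the largest positive difference. All 6 had a log2 fold change above 0, with a median of 0.25 and a smallest adjusted p of 0.482, and 2 of 6 reached an unadjusted p under 0.05 as higher (3.66% of all genes). Npc2 encodes the soluble carrier that binds cholesterol in the lysosome and hands it to the membrane protein Npc1 (ENSMUSG00000021242, chr12:84754562-84773152, minus strand, mm10). Its level was 1960.0, 1744, 2961, 2199 and 2857 CPM in Control 1 to 5 and 3289, 4079, 4746, 3575 and 2588 CPM in Glut1-KO 1 to 5. Of the Glut1-KO-labelled libraries 4 lay above every control, and Glut1-KO 5 lay within the control range. The means were 2344 ± 542 CPM (SD, n = 5) and 3655 ± 814 CPM (SD, n = 5). On the log2 scale the difference was 0.64 ± 0.20 (SE, 95% interval 0.19 to 1.08), and limma gave an unadjusted p of 0.009, adjusted to 0.482. The 2-sided exact permutation test of this gene alone gave p = 0.024, unadjusted for the other genes, where 0.0079 is the smallest value that 5 against 5 libraries allow.

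Lipa encodes lysosomal acid lipase, which frees cholesterol and fatty acids from cholesteryl esters and triglycerides (ENSMUSG00000024781, chr19:34492318-34527474, minus strand). The controls gave 85.0, 143, 118, 120.3 and 99.3 CPM and the Glut1-KO-labelled libraries 117, 154, 137, 154 and 211 CPM. Of the latter, 3 were above every control and the other two fell among the controls. The log2 fold change was 0.44 ± 0.18 (SE) with a limma adjusted p of 0.612 and an exact permutation p of 0.056. Smpd1, the acid sphingomyelinase, was at 94.9, 54.0, 106, 105 and 103 CPM in the controls and at 137, 87.8, 104, 137 and 115 CPM in the Glut1-KO-labelled libraries. Control 2 was far below the other controls, and the log2 fold change was 0.35 ± 0.20 (SE, limma adjusted p = 0.723). The acid ceramidase gene Asah1, the saposin precursor Psap and the GM2 activator Gm2a had log2 fold changes of 0.14, 0.11 and 0.02, and their groups overlapped.

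Added up in each library, the 37 genes gave 8671 to 11505 CPM in the controls (mean 10560 ± 1159 CPM, SD, n = 5) and 11754 to 13471 CPM in the Glut1-KO-labelled libraries (12446 ± 632 CPM, SD, n = 5). These sums did not overlap between the groups, and neither did those of the 6 lipid genes, at 2946 to 3982 CPM and 4317 to 5733 CPM. Npc2 was needed for that separation, although its own level overlapped between the groups. Without it, the other 36 genes summed to 6928 to 9374 CPM in the controls and 7674 to 9896 CPM in the Glut1-KO-labelled libraries, and the other 5 lipid genes to 969.9 to 1350.0 CPM and 987 to 1729 CPM, both overlapping. In bulk RNA, fewer cells of a type and less RNA per cell cannot be told apart for any of these genes.

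**Figure D3:**
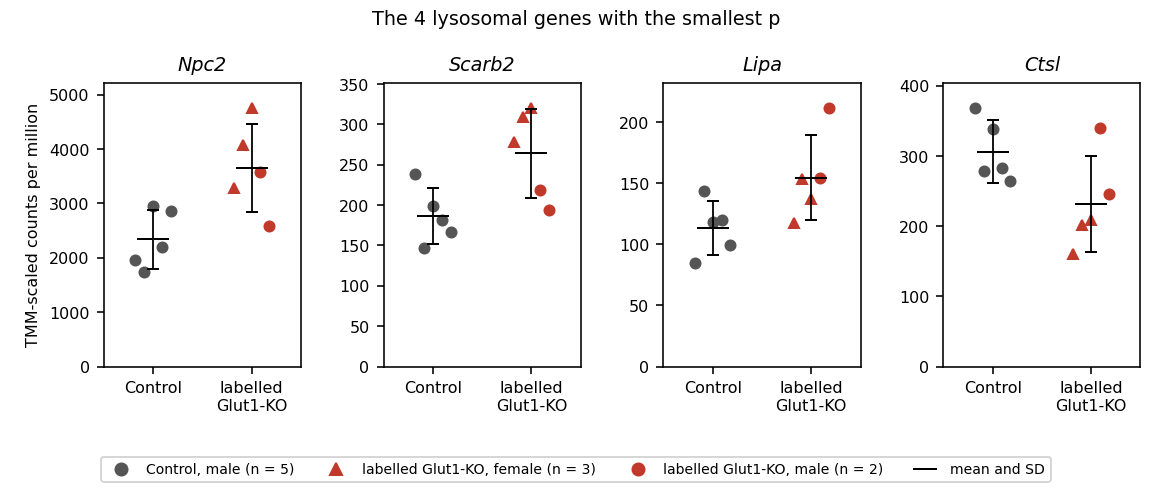
TMM-scaled CPM of the 4 lysosomal genes with the smallest p in every library, with the mean and SD of each group, for controls (gray circles, male, n = 5) and Glut1-KO-labelled libraries (red triangles female, n = 3, red circles male, n = 2). Of the red points 4 of 5 lie above every control for Npc2 and 3 of 5 for Scarb2 and Lipa, and 4 of 5 lie below every control for Ctsl.

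Of the 7 membrane proteins, 4 had a log2 fold change above 0 (median 0.07) and 1 reached an unadjusted p under 0.05 as higher (3.66% of all genes). This was Scarb2, also known as LIMP-2, an abundant membrane glycoprotein that carries beta-glucocerebrosidase to the lysosome (ENSMUSG00000029426, chr5:92441314-92506833, minus strand). It was at 238, 147, 199, 182 and 167 CPM in the controls and at 279, 309, 319.6, 219 and 194 CPM in the Glut1-KO-labelled libraries. Replicates 1 to 3, the female libraries, were above every control, and replicates 4 and 5, the male libraries, were within the control range. The log2 fold change was 0.49 ± 0.17 (SE, 95% interval 0.11 to 0.88), the limma adjusted p was 0.554 and the exact permutation p 0.048. Lamp1, the most abundant membrane glycoprotein gene and the one with the run of CACGTG, was at 839.8 to 1128 CPM in the controls and 850.4 to 1610.3 CPM in the Glut1-KO-labelled libraries, with a log2 fold change of 0.28 ± 0.17 (SE, limma adjusted p = 0.725). Lamp2, Cd63, the cholesterol exporter Npc1, the calcium channel gene Mcoln1 and Cln3 had log2 fold changes of -0.14, 0.07, 0.25, -0.05 and -0.01. Npc1, the membrane partner of Npc2, varied most within the groups, from 69.3 to 154 CPM in the controls and from 53.4 to 207 CPM in the Glut1-KO-labelled libraries, and its 95% interval ran from -0.51 to 1.01.

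The 7 proteases had a median log2 fold change of 0.11, 5 above 0 and 2 below. Ctsl encodes cathepsin L, a cysteine protease of broad specificity (ENSMUSG00000021477, chr13:64359337-64370890, minus strand), and it was the member with the largest negative difference. Its level was 368, 278, 338, 283 and 265 CPM in Control 1 to 5 and 160.2, 202, 209, 340.4 and 246 CPM in Glut1-KO 1 to 5. All but Glut1-KO 4 lay below every control. The means were 306 ± 44.4 CPM and 231 ± 68.1 CPM (SD, n = 5 each). The difference was -0.44 ± 0.19 on the log2 scale (SE, 95% interval -0.86 to -0.02), with a limma adjusted p of 0.644 and an exact permutation p of 0.063. In GENCODE M21, 26.8% of the exon bases of Ctsl lie on the opposite strand of an antisense gene and 6.09% in a processed pseudogene on the same strand, so that its count is less certain.

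Ctsd, highest of all members per length, was at 1970.5, 937, 1543, 2485 and 1098 CPM in the controls and at 1734, 1225, 984, 2118 and 1623 CPM in the Glut1-KO-labelled libraries. The Glut1-KO-labelled libraries lay inside the control range, and the log2 fold change was -0.03 ± 0.29 (SE, limma adjusted p = 0.988). The other cysteine cathepsins Ctsb, Ctsc and Ctsz had log2 fold changes of 0.24, 0.07 and 0.21, the carboxypeptidase Ctsa, which also protects other lysosomal enzymes, 0.11, and the tripeptidyl peptidase Tpp1 0.11. Ctsd shares 34.4% of its exon bases with a gene model on the same strand, and in all 15 members share exon bases with another gene, 3 on the same and 13 on the opposite strand. No source used here says whether reads were counted by strand.

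The 10 glycosidases, which remove sugars from glycoproteins, glycolipids and glycosaminoglycans, gave 6 log2 fold changes above 0 and 4 below (median 0.11), with 0 at an unadjusted p under 0.05. Man2b1, the lysosomal alpha-mannosidase, was at 125, 123, 95.5, 94.4 and 76.2 CPM in the controls and at 131, 105, 117, 120.0 and 135 CPM in the Glut1-KO-labelled libraries (log2 fold change 0.26 ± 0.15, SE, limma adjusted p = 0.721). The latter were the more even group, and 2 of them exceeded every control. Gla, the alpha-galactosidase whose promoter holds TCACGTG on both strands at each of its places, was at 15.4, 19.3, 18.5, 19.2 and 22.7 CPM in the controls and at 18.3, 9.37, 11.7, 15.4 and 23.4 CPM in the Glut1-KO-labelled libraries. The spread of the second group enclosed that of the first, and the log2 fold change was -0.35 ± 0.23 (SE, limma adjusted p = 0.756).

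Manba, the beta-mannosidase, was at 104, 90.1, 47.8, 68.9 and 55.2 CPM in the controls and at 46.4, 47.4, 68.9, 83.9 and 69.2 CPM in the Glut1-KO-labelled libraries (log2 fold change -0.20 ± 0.24, SE, limma adjusted p = 0.867). Idua, the alpha-iduronidase of glycosaminoglycan breakdown, was at 13.5, 20.3, 17.2, 14.4 and 18.2 CPM and at 18.5, 14.0, 17.5, 13.2 and 14.6 CPM (log2 fold change -0.10 ± 0.16, SE, limma adjusted p = 0.894). In both genes the groups overlapped over most of their range. The acid alpha-glucosidase Gaa, which degrades glycogen, and the sialidase Neu1 had log2 fold changes of 0.18 each, the hexosaminidase alpha chain Hexa 0.13, the beta-galactosidase Glb1 and the beta-glucuronidase Gusb 0.11 each, and Naglu, an enzyme of heparan sulfate breakdown, -0.02.

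Among the 4 sulfatases, which strip sulfate groups from glycans and lipids, 3 log2 fold changes were above 0 and the median was 0.22. Sgsh, which acts on heparan sulfate, was at 18.2, 15.1, 24.7, 24.5 and 24.8 CPM in the controls and at 30.0, 26.4, 27.8, 24.5 and 21.4 CPM in the Glut1-KO-labelled libraries (log2 fold change 0.31 ± 0.17, SE, limma adjusted p = 0.713). Its 3 female libraries lay above every control. Ids, the iduronate sulfatase, was at 87.4, 33.2, 146, 100.2 and 105 CPM and at 109, 46.2, 47.4, 73.3 and 66.4 CPM (log2 fold change -0.39 ± 0.38, SE, limma adjusted p = 0.827). This gene varied most of all members among the controls, and its interval from -1.21 to 0.44 passed 2-fold. Arsa, which acts on sulfatides, and Arsb, which acts on dermatan sulfate, had log2 fold changes of 0.19 and 0.24. Grn, whose product is cut into granulins in the lysosome, was at 164 to 213 CPM in the controls and 154 to 228 CPM in the Glut1-KO-labelled libraries, with a log2 fold change of -0.03.

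The transcription factors were among the less abundant of the list per length, Tfeb lowest of all with 4.73 TPM and Tfe3 with 20.4 TPM as means over the 10 libraries. Tfeb was at 5.01, 8.65, 8.27, 6.33 and 8.01 CPM in the controls and at 8.98, 6.99, 14.8, 8.40 and 7.81 CPM in the Glut1-KO-labelled libraries. Glut1-KO 3 stood above the rest, and the log2 fold change was 0.34 ± 0.24 (SE, limma adjusted p = 0.768). Tfe3 was at 58.3, 47.9, 69.7, 60.3 and 71.1 CPM in the controls and at 73.6, 45.3, 47.5, 52.2 and 68.3 CPM in the Glut1-KO-labelled libraries, with a log2 fold change of -0.11 ± 0.17 (SE, limma adjusted p = 0.895). Both factors act mainly through their place in the cell, which RNA levels do not show.

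Within the groups, the SD of log2 CPM had a median over the 37 genes of 0.26 among the controls and 0.32 among the Glut1-KO-labelled libraries, against 0.32 and 0.35 over all genes tested. In 17 of the 37 the highest library was over 2 times the lowest, beside 56.7% of all genes. Single libraries differed in how often they were extreme: Glut1-KO 5 was the highest of the 10 in 11 members (10.7% of all genes) and Glut1-KO 3 in 8 (14.1%), while Control 2 was the lowest in 12 (15.3%) and Control 3 in 6 (8.03%). Among others, Glut1-KO 5 was the highest library for Lamp1, Psap and Lipa, and Glut1-KO 3 for Gaa, Arsa, Npc2, Scarb2 and Tfeb.

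**Figure D4:**
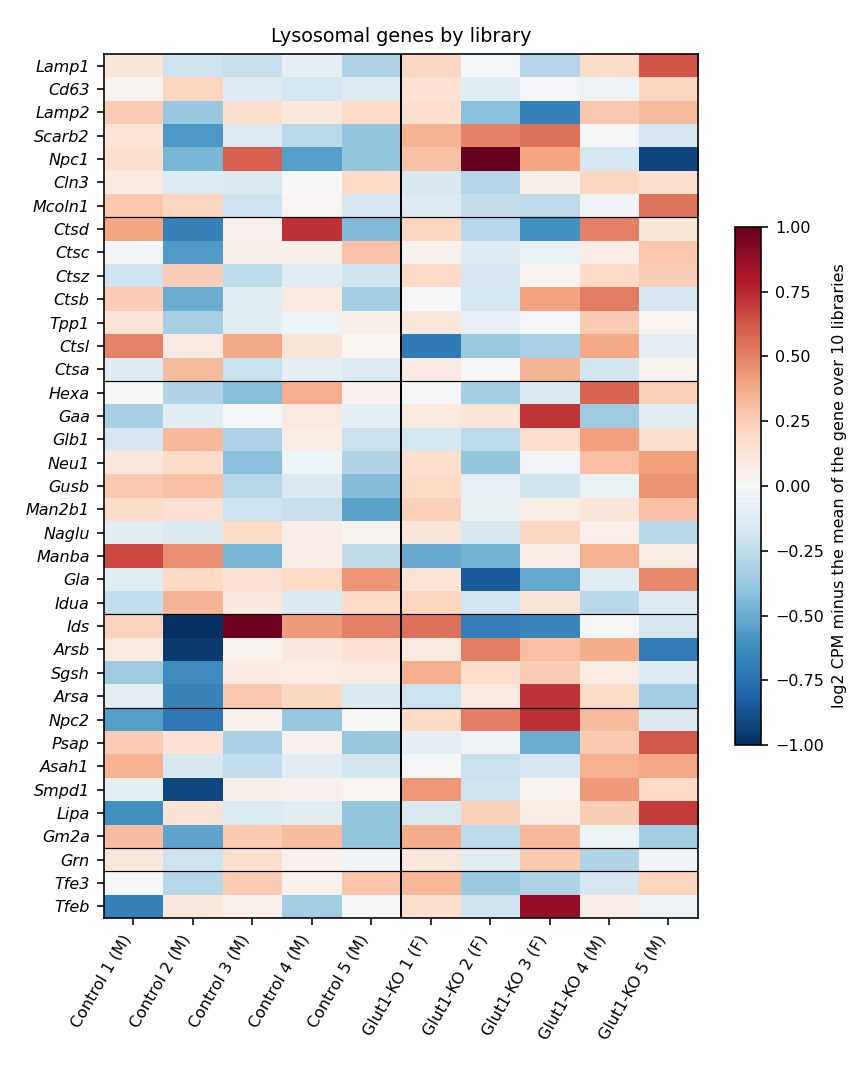
Log2 CPM of each lysosomal gene in each library minus the mean of that gene over the 10 libraries (red higher, blue lower, colors saturate at 1 either way), with sex as labelled (M, F). Control 2 is the lowest library in 12 genes and Glut1-KO 5 the highest in 11.

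The Glut1-KO-labelled libraries were also split by labelled sex. The 3 female libraries against the 5 male controls gave 0 of 37 members at a limma adjusted p under 0.05 (0.0548% of all genes), 5 higher at an unadjusted p under 0.05 (7.51% of all genes) and 2 lower (6.24%). The higher ones were Npc2 with a log2 fold change of 0.80, Scarb2 with 0.72, Npc1 with 0.71, Sgsh with 0.43 and Gaa with 0.41, and the lower ones Ctsl with -0.68 and Gla with -0.58. The 2 male libraries against the same controls also gave 0 of 37 (0.00597% of all genes), 4 higher at an unadjusted p under 0.05 (5.41%) and 0 lower (3.87%), namely Lipa with 0.69, Lamp1 with 0.54, Neu1 with 0.45 and Asah1 with 0.44. These fits share their controls, and in the first of them sex and genotype cannot be told apart. Npc2 was 0.41 in the male and Ctsl -0.07, against 0.80 and -0.68 in the female libraries. Markers of other cells differed along with this split. The median log2 fold change of the tested macrophage and myeloid markers was 1.22 in the female and 0.45 in the male libraries, with 14 and 6 genes higher at an unadjusted p under 0.05 (7.51% and 5.41% of all genes). That of 6 epithelial markers was -0.40 (4 lower at an unadjusted p under 0.05, 6.24% of all genes) and 0.39 (0 lower and 1 higher). Of 9 endothelial markers (medians 0.89 and 0.09), 6 were higher at an unadjusted p under 0.05 in the female libraries (7.51% of all genes). In the male libraries 0 were higher (5.41%). Medians of the erythroid markers were -1.03 in the female and 0.24 in the male libraries, and those of alveolar type 1 markers 0.33 and -0.32. The 10 genes of the response to dissociation had medians of -0.23 and -0.72. Of them, 3 and 6 were lower at an unadjusted p under 0.05 (6.24% and 3.87% of all genes). The part of these cells or of dissociation in the values by sex was not tested.

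A direct comparison of the 3 female with the 2 male Glut1-KO-labelled libraries, added after the data were seen, called 0 of 37 members by limma (0.0489% of all genes). At an unadjusted p under 0.05, 2 were higher in the female libraries, Npc1 with a log2 difference of 1.14 and Scarb2 with 0.55 (9.35% of all genes), and 4 were lower, Psap with -0.64, Ctsl with -0.62, Hexa with -0.58 and Asah1 with -0.50 (10.3%). The male libraries 4 and 5 were those whose Slc2a1 lay inside the control range, and they shared a number in their names, so that sex, Slc2a1 level and possible animal cannot be told apart here. In 11 members every female library lay below every male one (20.3% of all genes) and in 4 above (20.6%).

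The wider lysosomal system gave 0 genes past limma's adjusted threshold in any of 6 lists. Over all genes tested 49.3% were above 0, and 3.66% were higher and 4.02% lower at an unadjusted p under 0.05, the shares against which the counts of each list are to be read. Of 15 subunits of the v-ATPase, the pump that acidifies the lysosome, 10 had a log2 fold change above 0 (median 0.04) and 0 reached an unadjusted p under 0.05. Of 30 other lysosomal hydrolases and activators, 25 were above 0 (median 0.23) and 4 reached an unadjusted p under 0.05, all higher. The largest was Ctss, cathepsin S, a protease of antigen-presenting cells, at 7.04 to 8.73 CPM in the controls and 11.8 to 26.8 CPM in the Glut1-KO-labelled libraries, which did not overlap. Its log2 fold change was 1.22 ± 0.26 (SE) with an adjusted p of 0.314 by limma and 0.00014 by DESeq2. Prcp and Ppt1 followed with 0.47 and 0.30.

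Of 28 other membrane proteins and transporters of the lysosome, 17 were above 0 (median 0.07), 4 reached an unadjusted p under 0.05 as higher and 1 as lower. Laptm5, a lysosomal protein of blood cells, was at 2.73 to 5.11 CPM in the controls and 5.28 to 10.4 CPM in the Glut1-KO-labelled libraries, without overlap, and its log2 fold change was 0.95 ± 0.26 (SE), with an adjusted p of 0.419 by limma and 0.036 by DESeq2. Slc15a3, a peptide transporter, had 0.95, the channel Tpcn2 0.36 and the nucleoside transporter Slc29a3 -0.48. Of 21 genes that sort enzymes to the lysosome, 11 were above 0 (median 0.05), with Sort1 (0.72) and Gga2 (0.43), which act at the Golgi apparatus, at an unadjusted p under 0.05. Of 24 tested genes around the regulation of TFEB and TFE3, 14 were above 0 (median 0.10). Gpnmb, a membrane glycoprotein often abundant in macrophages, was the only one at an unadjusted p under 0.05, with a log2 fold change of 1.76 between means of 0.195 and 0.686 CPM. Of 28 autophagy genes 12 were above 0 (median -0.09), with Atg16l1 (0.26) at an unadjusted p under 0.05.

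**Figure D5:**
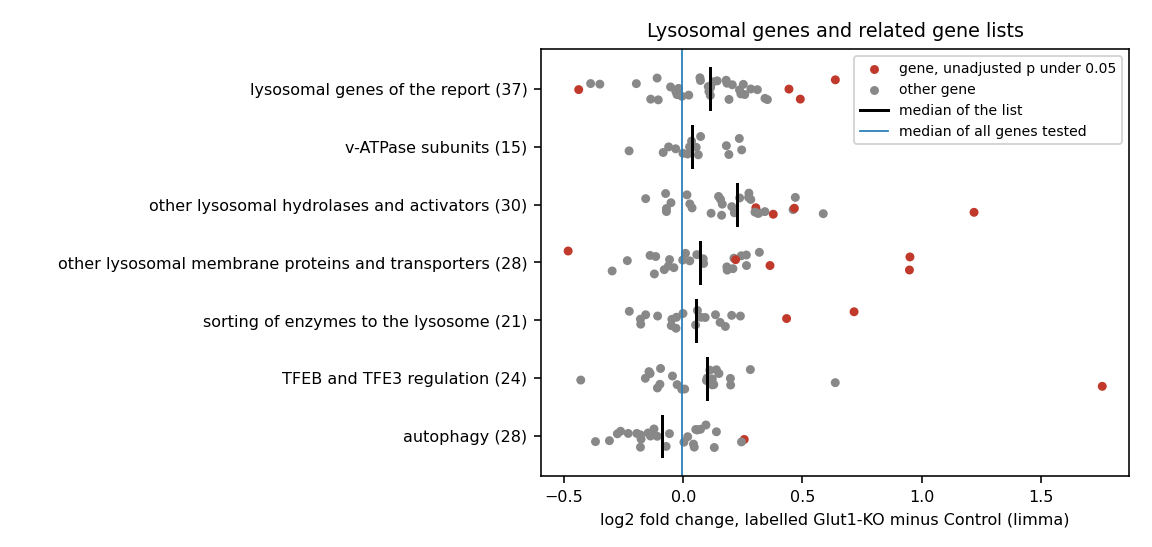
Log2 fold change (Glut1-KO-labelled libraries minus Control, limma) of the 37 lysosomal genes and of the tested genes of 6 related lists, 1 point a gene, red where the unadjusted p is under 0.05. Black bars mark the median of each list and the blue line the median of all genes tested (-0.0049). The list medians lie between -0.09 for autophagy and 0.23 for the other hydrolases, and the points far to the right are Gpnmb, Ctss, Laptm5 and Slc15a3.

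Macrophages are rich in lysosomes, and the CD45 depletion was meant to remove them. Of 22 macrophage and myeloid markers 20 were tested, 18 had a log2 fold change above 0 (median 0.88), 13 reached an unadjusted p under 0.05, all higher (3.66% of all genes), and 7 did not overlap (1.85%). The adjusted threshold was passed by 0 with limma and by 8 with DESeq2 (1.35% of all genes). Ptprc, the gene of CD45 itself, was at 2.30 to 3.26 CPM in the controls and 5.05 to 10.1 CPM in the Glut1-KO-labelled libraries. The list summed to 1147 to 11541 CPM in the controls and 2248 to 8134 CPM in the Glut1-KO-labelled libraries. The largest part of this in every library was Lyz2, which alveolar type 2 cells also express, and without it the sums were 154 to 364 CPM and 236 to 332 CPM. Without Cd14 as well, which was at 80.6 to 307 CPM in the controls, the other 20 markers summed to 57.8 to 91.0 CPM and 89.2 to 133 CPM. Marco was at 0 in 2 controls and Siglecf in 1 library labelled Glut1-KO, and both were too low to test. The share of these cells in the levels of Ctss, Laptm5, Npc2 or any other gene named here was not tested. The 10 genes of the response to dissociation all had log2 fold changes below 0 (median -0.38). Of these, 5 were lower at an unadjusted limma p under 0.05 (4.02% of all genes). In 3 of them, Jun, Dusp1 and Atf3, the groups did not overlap (1.85% of all genes). The adjusted threshold was passed by 0 with limma and by 2 of the 10 with DESeq2 (1.35% of all genes). The 10 summed to 5725 to 7663 CPM in the controls and 3686 to 6205 CPM in the Glut1-KO-labelled libraries. Their part in the lysosomal values was not tested.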

How the data were processed

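The authors made stranded mRNA libraries and trimmed the single-end reads with Cutadapt (1.4.2 in the submitters' processing notes, a different version in the paper's methods). They aligned the reads to mm10 with HISAT2 and deposited raw counts per Ensembl gene with no normalization. The same notes name featureCounts 1.4.4, and the strand setting and annotation release are not given in the sources used here. Positions and exon lengths came from GENCODE M21 (37693 of 39017 identifiers found). Deposited log2 values were not used.

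Counts were filtered with filterByExpr (minimum count 10, minimum total 15; edgeR 4.0.16), TMM-scaled and passed through voom (prior count 0.5) to limma 3.58.1 in R 4.3.3 with the group as sole term, with Benjamini-Hochberg adjustment over all 15922 genes and a threshold of 0.05. The study also used TMM, voom and limma, with a TPM filter. DESeq2 1.42.0, edgeR's quasi-likelihood test, other scalings and filters, sex, a replicate block, name numbers, quality weights and leaving out each library were the alternatives. The exact permutation test was 2-sided over 252 assignments. The pipeline was tested on simulated data. Totals were 42.7 ± 4.00 M counts (SD, n = 5) in controls and 40.9 ± 3.82 M in the other group.

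The 37 members and all lists were chosen with earlier results of these data known. Values per library were given for up to 6 members per direction with the smallest limma p and for the highest and lowest member per length, and from each related list up to 3 genes per direction at an unadjusted p under 0.05. Promoters came from RefSeq (GRCm38.p6). A further allele that both groups share is not reported here.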

Additional observations from a re-analysis of the deposited data

Results flagged for a closer look

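In 9 of 80 groups of 5 values, taken over the 37 genes, their sum, Slc2a1 and the total counts, 1 library stood apart from its neighbor by more than 0.71 of the whole range of its group (Dixon's limit for 5 values). Chance alone gives about 1 in 20 groups. Control 2 accounted for 6 of them. Its total was 49.8 M counts against 40.1 to 41.4 M in the other controls. Its Lamp2 level was 309 CPM (433 to 482 in the other controls), Arsb 18.8 CPM (37.6 to 40.4) and Smpd1 54.0 CPM (94.9 to 106), all low, while Ctsa at 223 CPM (154 to 169) and Ctsz at 212 CPM (150.0 to 166) were high. Control 1 was high for Asah1, at 286 CPM against 190 to 207 CPM. Among the Glut1-KO-labelled libraries, replicate 5 was high for Mcoln1, at 49.7 CPM against 28.6 to 33.4 CPM, and replicate 3 for Tfeb, at 14.8 CPM against 6.99 to 8.98 CPM.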

How the results depend on the processing

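Under 23 alternative settings, 10 of which each left out a library, 0 of the 37 genes passed the adjusted threshold. The median log2 fold change stayed between 0.06 and 0.19, and 17 genes kept their sign throughout, among them Npc2 (0.41 to 0.80, adjusted p 0.109 to 0.826), Scarb2 (0.16 to 0.72), Lipa (0.28 to 0.69) and Ctsl (-0.68 to -0.07). An unadjusted p under 0.05 was reached by 7 members with the female Glut1-KO-labelled libraries only (13.8% of all genes in that fit), by 2 with counts summed by name number (7.13%), and by 2 (without Glut1-KO 2, 6.40%) to 6 (without Control 2, 8.92%) with a library left out. With a library left out, 0 to 1 members did not overlap between the groups, Npc2 without Glut1-KO 5 (4.13% of all genes) and Ctsl without Glut1-KO 4 (2.78%). DESeq2 called 2 genes of the 6 related lists, beside 1.35% of all genes tested: Ctss of the 30 other hydrolases and Laptm5 of the 28 other membrane proteins. Slc2a1 turned to a log2 fold change of 0.0613 with sex as a covariate (limma adjusted p = 0.943) and 0.0604 in male libraries only (limma adjusted p = 0.940). Both values compare the male Glut1-KO-labelled libraries with the controls.

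The signs of some members turned in several settings, with log2 fold changes as follows, and the cause was not tested. All controls were male, so with sex as a covariate the group term compares the male Glut1-KO-labelled libraries with the controls. That is the same comparison as with male libraries only, so these settings are not independent of each other. With sex as a covariate they were Lamp2 0.22, Npc1 -0.43, Mcoln1 0.23, Cln3 0.19, Ctsa -0.0245, Ctsd 0.30, Gla 0.0316, Gaa -0.15, Manba 0.11, Arsa -0.00268, Arsb -0.0681 and Gm2a -0.19. With male libraries only they were Lamp2 0.22, Npc1 -0.44, Mcoln1 0.24, Cln3 0.19, Ctsa -0.0254, Ctsd 0.30, Gla 0.0316, Gaa -0.15, Manba 0.11, Arsa -0.0039, Arsb -0.0722 and Gm2a -0.20. With only the female Glut1-KO-labelled libraries they were Ctsc -0.0122, Glb1 -0.0242, Hexa -0.0974, Naglu 0.0584, Asah1 -0.0524, Psap -0.15 and Grn 0.0795. With quality weights they were Ctsc -0.0202, Hexa -0.0211, Idua 0.0177 and Gm2a -0.0414, and with counts summed by name number Cln3 0.0112, Naglu 0.0168 and Grn 0.0412. Cln3 was 0.00625 with DESeq2, 0.0017 with the edgeR quasi-likelihood test, 0.00358 with genes at a mean of 1 CPM or more and 0.00415 with upper-quartile scaling, and Gm2a was -0.0027 with the edgeR quasi-likelihood test. With a library left out, the fold changes that crossed 0 ranged from -0.24 to 0.0151 for Lamp2, -0.19 to 0.00941 for Mcoln1, -0.0567 to 0.0674 for Cln3, -0.0542 to 0.15 for Ctsc, -0.19 to 0.16 for Ctsd, -0.00125 to 0.23 for Hexa, -0.0776 to 0.0611 for Naglu, -0.0194 to 0.24 for Psap, -0.11 to 0.13 for Gm2a and -0.0999 to 0.042 for Grn.

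The groups share replicate numbers, but the numbers did not pair the libraries: same-numbered deviations from the group means correlated at -0.13 to 0.20. With the replicate number as a block, 0 members were called, 4 had an unadjusted p under 0.05 (7.26% of all genes in that fit) and the median was 0.11. Of 5 pairs, 1 correlated best with its own number. Genotype was partly confounded with sex and possibly with animal.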
